A study of Canis lupus familiaris with 20 samples.

Results

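CMT-U27 is a canine mammary cancer cell line that came from a simple carcinoma. It was 1 of 5 cancer lines grown together with macrophages, and all 4 arrays that carry its name, of 20 in the series, are described here. On 2 of them the cancer cells sorted out of the co-culture were set against CMT-U27 grown alone, and on the other 2 the sorted macrophages were set against macrophages grown alone. The macrophages had been CD64-positive monocytes sorted from dog blood, they were placed on cancer cells stained with the orange tracker dye CMTMR, and the co-culture lasted at least 72 h before trypsin and cell sorting separated the stained from the unstained cells. Both mono-cultures (the labels call them single cultures) were scraped rather than sorted, and all cells grew in RPMI-1640 with bovine serum. The other co-cultures were those of P114 (from an anaplastic cancer), CMT-U309 (from a spindle-cell tumour) and the adenocarcinomas CMT-W1 and CMT-W2, with 2 arrays for each sorted population.

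Tumour-associated macrophages are recruited to carcinomas as blood monocytes and can make up a large part of the tumour mass. They secrete chemokines that draw in further leukocytes, cytokines such as interleukin-1, prostaglandins, and proteases that cut the extracellular matrix. In a direct co-culture both cell types touch, exchange secreted factors and can take up each other's fragments, so a sorted population may also carry RNA of the other cell type. In bulk RNA of this kind, fewer cells of a type and less RNA per cell cannot be told apart.

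Each array compared 2 RNAs in 2 colours, and the second array of a pair repeated the comparison with exchanged dyes. The methods describe the 2 arrays as a dye swap of 1 sample while the labels call them biological replicates, so each pair was counted as 1 replicate and no test within the CMT-U27 co-culture was possible. Values are log2 ratios of co-culture over mono-culture. A gene was called up-regulated or down-regulated where it changed at least 3-fold the same way on both arrays and stood well above background on both arrays in at least 1 of the cultures. On the CMT-U27 arrays 50.2% to 69.7% of spots in the mono-culture channel and 54.5% to 68.2% in the co-culture channel stood well above background, 9 to 21 spots were marked as outliers and 0 were saturated. The 2 arrays correlated across genes at r = 0.94 (cancer cells) and 0.957 (macrophages). The standard deviation of a single array within its pair was 0.41 and 0.37 on the log2 scale.

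The cell type of each RNA was compared with its label before any ratio was read. Macrophage-rich genes were defined without any CMT-U27 array, as genes at least 16-fold higher in macrophages than in cancer cells in the mono-cultures of each of the other 4 lines. The median level of these 387 genes, relative to macrophages grown alone, was 3.17% in CMT-U27 grown alone, 71.4% in the RNA labelled sorted cancer cells (70.5% and 70.8% on the 2 arrays) and 22.6% in the RNA labelled sorted macrophages (22.5% and 23.0%). In the other co-cultures the sorted cancer cells stood at 4.47% to 17.1% and the sorted macrophages at 7.47% to 32.2%, and in CMT-W2 the cancer cells were likewise the higher (12% against 11.1%). Within the CMT-U27 co-culture 333 of 387 macrophage-rich genes were thus higher in the RNA labelled cancer cells than in the RNA labelled macrophages.

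The 143 cancer-rich genes, chosen by the reverse rule, stood the other way round. Relative to CMT-U27 grown alone they were at 31.6% in the RNA labelled cancer cells, at 105% in the RNA labelled macrophages and at 2.07% in macrophages grown alone. In 140 of 143 the RNA labelled macrophages held the higher level. The other sorted cancer cells kept 55.7% to 81.7% of the cancer-rich level, and the other sorted macrophages held 26.2% to 85.7%. The sorted macrophages were also the higher in CMT-U309 (70.4% against 55.7%) and P114 (85.7% against 81.7%). That order turned in CMT-U309 without normalization between arrays (47.3% against 60.2%) and in P114 with quantile normalization (75.4% against 80.6%). Without normalization between arrays it turned the opposite way in CMT-W1, where the sorted cancer cells held 73.0% and the sorted macrophages more than the mono-culture. In P114 the sorted macrophages then held 108% against 81.7%. Both macrophage levels were above the 96.6% of CMT-U27, so under that setting a near-full cancer-rich level was not particular to CMT-U27. Across 25056 genes the levels of CMT-U27 grown alone correlated at r = 0.862 with the RNA labelled macrophages and at r = 0.83 with the RNA labelled cancer cells, which in turn correlated at r = 0.893 with macrophages grown alone. These correlations describe genes of shared arrays and are not independent replicates. In the other lines the mono-culture correlated at 0.898 to 0.947 with the sorted cancer cells and at 0.783 to 0.922 with the sorted macrophages, and in P114 both values were nearly equal (0.921 and 0.922).

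**Figure D1:**
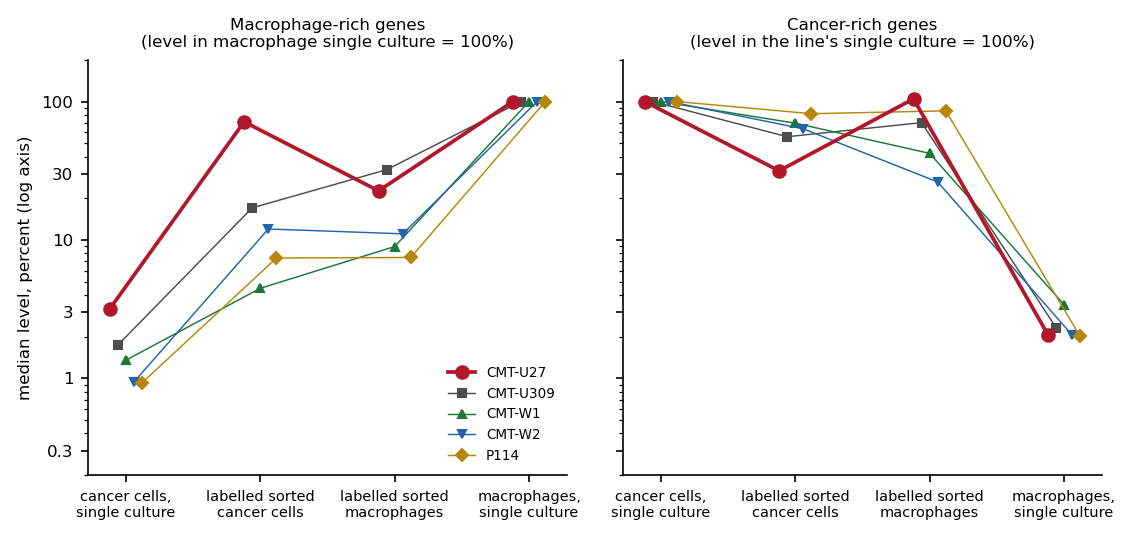
Median level of macrophage-rich genes (left) and cancer-rich genes (right) in the 4 RNAs of each co-culture, in percent on a log axis, with the macrophage mono-culture or the line's own mono-culture set to 100; each point is the mean of the dye-swap pair. In CMT-U27 the RNA labelled sorted cancer cells holds 71.4% of the macrophage-rich level and the RNA labelled sorted macrophages 22.6%, while cancer-rich genes stand at 31.6% and 105%.

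Genes particular to the line gave the same order of levels. These genes were picked after the values above were seen. A set of 103 genes was at least 8-fold higher in CMT-U27 grown alone than in every other mono-culture, among them CES1 (a carboxylesterase), DIO1 (an iodothyronine deiodinase) and SLC1A1 (a glutamate transporter). Relative to CMT-U27 grown alone they stood at 11.1% in the RNA labelled cancer cells and at 26.3% in the RNA labelled macrophages, against 2.8% to 5.63% in the sorted macrophages of the other co-cultures, and 91 of 103 were higher in the RNA labelled macrophages. A set of 24 genes was at least 8-fold lower in CMT-U27 than in every other mono-culture. These stood at 82.0% of the macrophage mono-culture in the RNA labelled cancer cells and at 39.8% in the RNA labelled macrophages. Their low level in CMT-U27 grown alone (3.14%) was set by the choice of genes. Both sets were chosen on the RNA of CMT-U27 grown alone, which shared its arrays with the RNA labelled cancer cells. The labels were kept as given, no sample was reassigned, and every direction below is that of "the RNA labelled" cancer cells or macrophages. The part that RNA of the other cell type, or exchanged labels, had in these values was not tested. The study also describes purity checks after the sort, qPCR and staining of these cultures, which are not analysed here.

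Marker genes chosen from textbook knowledge were read in all 4 RNAs. The summed level of 12 macrophage markers on the array was 40241 signal units in CMT-U27 grown alone, 846600 in the RNA labelled cancer cells, 200830 in the RNA labelled macrophages and 872430 in macrophages grown alone, and CD209 was the marker not above background on either array in CMT-U27 grown alone. The 7 epithelial markers summed to 15333, 8217, 13849 and 7048 in the same order. The 10 mesenchymal and matrix genes summed to 22878, 8346, 19068 and 8611. The 4 granulocyte markers, led by S100A8, summed to 4309, 25510, 4254 and 103780. The 7 lymphocyte markers summed to at most 2296, and the B cell marker MS4A1 was below background in both cancer cell RNAs. Thus the RNA labelled cancer cells was nearer to macrophages grown alone in the macrophage and matrix genes, and the RNA labelled macrophages was nearer to CMT-U27 grown alone in the matrix genes.

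In the RNA labelled cancer cells of CMT-U27, 2876 genes were up-regulated and 2401 down-regulated of 23657 measured, 12.2% and 10.1%. With normexp and median centring 1683 of the 1790 genes called were up-regulated, 94.0% in place of 54.5%. The share changed in either direction was 22.3%, against 15.8% in CMT-U309, 6.62% in CMT-W1, 7.56% in CMT-W2 and 7.66% in P114. Genes of phagocytes and inflammation rose, with PTGS2, CXCL8 and IL1B the 3 highest of all named genes. Genes of the cell cycle and DNA repair fell, ASPM among them. Of 720 measured genes with a symbol 178 rose (24.7%) and 70 fell (9.72%), so the named genes rose more often than all genes did.

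All 12 measured macrophage markers rose, against 12.2% of all genes, with a median log2 ratio of 5.75 against -0.01 for all genes and 3.11 to 4.79 for the same list in the other lines. Here and below, the median of a list in another co-culture covers only those of its genes measured there too. CD163, the haemoglobin scavenger receptor of macrophages, rose by 7.03 and 7.23 on the 2 arrays. C5AR1, the receptor of complement fragment C5a, rose by 6.61 and 7.33, above the range of 3.33 to 6.06 in the other lines. ADGRE1, the F4/80 antigen, rose by 5.16 and 7.06, where the other lines ranged from 2.66 to 3.76. Of the 11 markers that could be ranked over the lines, 7 were highest in CMT-U27, where 27% of all genes and 34.6% of those with a symbol were. CD163 (5.88 to 7.28 elsewhere) and FCGR1A, which encodes the CD64 used for sorting (5.60 against 4.30 to 6.68), lay within the range of the other lines.

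Genes of lysosomes and iron handling rose in 11 of 12 cases, against 12.2% of all genes and 24.7% of those with a symbol. Their median was 3.87, while their medians in the other lines ran from 1.32 to 2.73. The cathepsins CTSK and CTSS, proteases that digest matrix and antigen in the lysosome, rose by 6.65 and 6.53 as the mean of both arrays. FTH1 and FTL, the chains of the iron store ferritin, differed most from the other lines. FTH1 rose by 6.38 and 6.88, against 1.52 to 3.04 elsewhere, and its 5 probes gave 5.97 to 7.21. FTL rose by 4.50 and 4.62, against 1.00 to 2.01 elsewhere. TFRC, the transferrin receptor through which cells take up iron, stood at -0.47 and was not called.

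**Figure D2:**
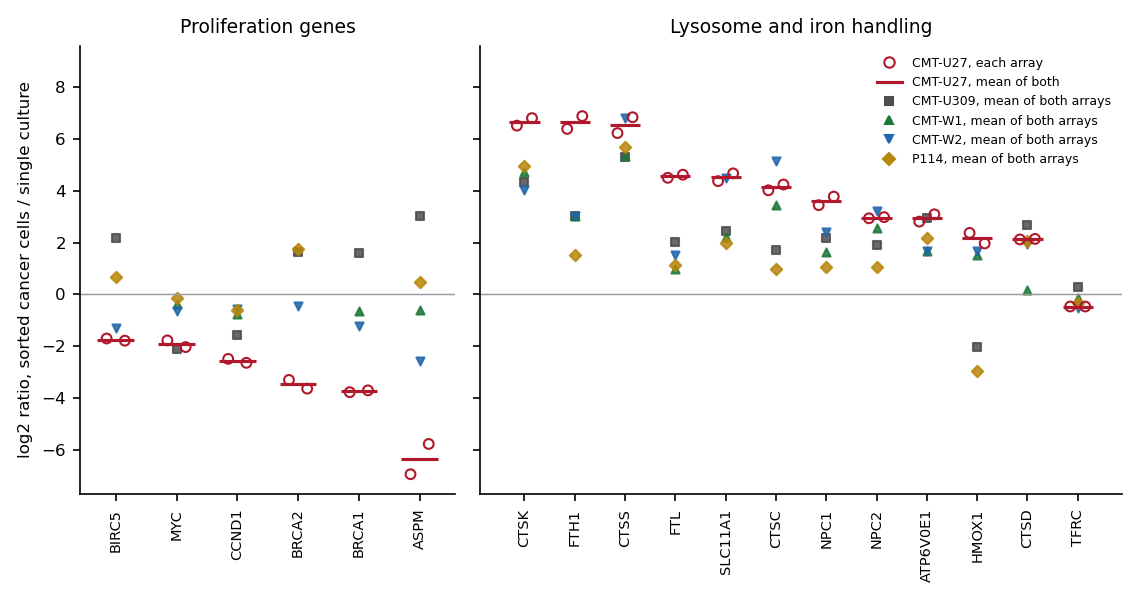
Log2 ratio of sorted over single-culture cancer cells for measured proliferation genes (left) and each lysosome and iron gene (right); open circles are the 2 CMT-U27 arrays, the bar is their mean, and filled symbols are the dye-swap means of the other lines. ASPM at -6.35 and CCND1 at -2.56 lie below all other lines, and FTH1 at 6.63 and FTL at 4.56 lie above them.

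PTGS2, the inducible cyclooxygenase that starts prostaglandin synthesis, was the highest named gene at 10.45 and 9.45, where the other lines ranged from 3.95 to 7.93. PTGER4, a receptor of prostaglandin E2, rose by 3.89 against 0.44 to 2.27 elsewhere. IL1B and IL1A, the interleukin-1 ligands, rose by 7.75 and 6.47. In the cytokine and growth factor list 11 of 21 rose (52.4%) and 0 fell, where 12.2% of all genes and 24.7% of those with a symbol rose. The list median was 2.31, against 0.38 to 1.79 in the other lines. Of these 11 genes 4 stayed past 3-fold with normexp and loess (median 1.42) and 6 with normexp and median centring (median 1.69). TNF (0.80) and VEGFA (0.08) were among the 10 that were not called, but a second probe stood at 1.98 for TNF and at 3.16 for VEGFA.

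Antigen presentation was changed in the same direction. Costimulatory and antigen-presenting genes rose in 9 of 11 cases with a median of 3.94, among them CD80 (6.62) and CD86 (5.89), the ligands that give T cells their second signal. All 3 measured Fc receptor and adaptor genes rose, as did 3 of 6 Toll-like receptor genes and 4 of 5 interferon-stimulated genes. Beside these counts, 12.2% of all genes and 24.7% of those with a symbol rose. CYBB, the catalytic subunit of the phagocyte NADPH oxidase that makes superoxide, rose by 3.04 and was highest of the 5 lines, as was CYBA, its partner in the membrane, which at 1.35 was not called. The adhesion molecule ICAM1 rose by 2.76, against 0.49 to 1.89 elsewhere.

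Among the 7 CC chemokine ligands ranked over the lines, 2 (28.6%) were lowest in the RNA labelled cancer cells of CMT-U27 and 0 highest. Of all genes 23.5% were lowest and 27% highest there. CXCL8, which attracts neutrophils, rose by 8.14 and 8.79, within the range of 5.23 to 8.93 elsewhere, and CCL2, CCL3, CCL4, CCL5, CCL8 and CCL13 were up-regulated. CCL7, a monocyte attractant, stood at 0.56 and 0.33, whereas it was at 3.49 to 5.01 in the 3 other lines that measured it. CXCL10, an interferon-induced attractant of T cells, stood at -0.16 and -0.44, against 4.22 to 6.91 elsewhere. Neither was called in CMT-U27, and both were the lowest of the lines in which they were measured, as was CCL20 at -0.86 against 0.46 to 7.02. CCL28, an epithelial chemokine, fell by 3.01 and 2.87.

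All 7 measured proliferation genes fell, against 10.1% of all genes, with a median of -3.46. The medians of the same list in the other lines were 1.62 in CMT-U309, 0.58 in P114, -0.64 in CMT-W1 and -1.23 in CMT-W2. ASPM, a spindle-pole protein of dividing cells, stood at -6.93 and -5.77 and was not well above background in the RNA labelled cancer cells, so that it was at least 28.0-fold lower there. Such a bound sets the brighter culture against the lowest signal still called above background on each array. BRCA1 and BRCA2 act in the repair of DNA double-strand breaks, and BRCA1 was at least 4.61-fold lower and BRCA2 at least 6.49-fold lower. The cyclin CCND1 fell by 2.48 and 2.64, and MYC stood at -1.77 and -2.03. For 6 of the 7 genes CMT-U27 was the lowest line, MYC being the exception, where 23.5% of all genes were lowest in CMT-U27. With the other scalings tried fewer of the 7 stayed past 3-fold, 3 with normexp and loess (median -1.56) and 2 with normexp and median centring (median -0.86), all still below 0.

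Other genes expressed by CMT-U27 grown alone also fell. MET, the receptor of hepatocyte growth factor, stood at -4.25 and -4.08, against -1.90 to -0.12 elsewhere. CES1 fell by 3.86 and 3.74, and SLC1A1 stood at -4.07 as the mean. The tight-junction gene CLDN3 fell by 2.37 and CAV1, the caveolae coat protein, by 2.47. The mesenchymal and matrix list had a median of -1.05, against -0.45 to -0.30 in the other lines. Of its 8 genes 2 (25%) were called down-regulated, against 10.1% of all genes. With loess 1 of the 2 stayed past 3-fold, and with centring 0. The 4 ribosomal protein genes ranged from -0.57 to 0.42 and none was called.

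Of 11 membrane transporters and channels 6 rose (54.5%) and 2 fell (18.2%) in the RNA labelled cancer cells, against 12.2% and 10.1% of all genes. Their median was 2.17, against -0.90 to 0.56 in the other lines. Under both other scalings 4 of the 6 stayed past 3-fold and 0 of the 2, whose median was -1.08 with loess and -0.90 with centring. ABCB1, the multidrug efflux pump P-glycoprotein, rose by 2.89 and 3.42, whereas the 3 other lines that measured it stood between -0.35 and 0.59. SLC46A2 was not well above background in CMT-U27 grown alone and was at least 29.1-fold higher in the co-culture, at 7.33 and 5.50 on the 2 arrays. SLC2A1, the glucose transporter GLUT1, rose by 1.90 and 2.44, above the range of -0.90 to 1.13 elsewhere. Of the 4 measured hypoxia-induced genes SLC2A1 rose, and ADM (1.16) and VEGFA (0.08, second probe 3.16) were not called. CA9, a carbonic anhydrase, stood at -2.37 and was called down-regulated, but with loess (-0.69) and centring (-0.71) it was not past 3-fold. The Wnt, growth factor receptor and oncogene list had 2 of 11 up (18.2%), MDM2 among them, against 12.2% of all genes and 24.7% of those with a symbol. Another 4 (36.4%) were down (MET, KIT, MYC and MSX2), against 10.1% of all genes. The list median of -0.92 lay inside the range of -1.17 to -0.10 in the other lines. Of the 4 genes down, 2 stayed past 3-fold with loess and 1 with centring.

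In the RNA labelled macrophages of CMT-U27, 3209 genes were up-regulated and 2249 down-regulated of 24087 measured, 13.3% and 9.34%. With normexp and loess there were 1694 up and 457 down. The share changed in either direction, 22.7%, lay among those of the other macrophages, which were 22% with CMT-U309, 24.6% with CMT-W1, 20.6% with CMT-W2 and 25.2% with P114. Of 737 measured genes with a symbol 113 rose (15.3%) and 95 fell (12.9%). Macrophage markers and Fc receptors fell. The highest named gene was DSG3 and the lowest CCL13.

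Of 12 macrophage markers 9 fell and 0 rose, against 9.34% of all genes that fell, with a median of -2.53 against -0.29 for all genes. The same list had a median of -1.68 in CMT-U309, -3.89 in P114, -4.59 in CMT-W2 and -4.93 in CMT-W1. C5AR1 stood at -4.38 and -4.21, CD209, a lectin of macrophages and dendritic cells, at -4.08 and -4.26, and CD163 at -3.92 and -4.27. All 3 lay within the range of the other co-cultures. CTSS (-1.03), SLC11A1 (-1.43) and CYBB (-1.58) did not reach 3-fold on both arrays.

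Further receptors of the phagocyte fell. All 4 Fc receptor and adaptor genes and 5 of 6 Toll-like receptor genes were down-regulated, against 9.34% of all genes and 12.9% of those with a symbol. The list medians were -2.96 and -2.17, and 3 of the 5 Toll-like receptor genes stayed past 3-fold with loess. CCR1, a receptor of CCL3 and CCL5, stood at -2.67 and -3.10, within the -4.25 to -2.02 of the other co-cultures. HMOX1, which degrades haem, stood at -3.81 and S100A8, a calcium-binding protein of monocytes and neutrophils, at -4.86. TIMP1, an inhibitor of matrix metalloproteinases, fell by 2.47 and 2.32 in the macrophages, whereas the other co-cultures stood between -0.20 and 1.21.

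Several genes known from epithelial cells were among those up-regulated in the RNA labelled macrophages. DSG3, a desmosomal cadherin of stratified epithelia, rose by 9.48 and 8.85. It was at least 248-fold higher than in macrophages grown alone, where it was not well above background. P114 was the only other co-culture that measured DSG3 in macrophages, at 5.93. CGN, the tight-junction protein cingulin, rose by 6.47 and 7.24, above the range of 1.18 to 5.45 elsewhere. CES1 and CCL28, which both fell in the RNA labelled cancer cells, rose at least 77.0-fold (CES1) or at least 64.3-fold (CCL28), and neither was measured in the macrophages of any other co-culture. CAV1 was at least 77.4-fold higher, and its log2 ratio of 6.79 stood beside 5.02 to 6.14 in the other 4 co-cultures. CFTR, an epithelial chloride channel, was at least 45.3-fold higher. Its log2 ratio was 6.62, against 5.73 in P114, the only other co-culture that measured it in macrophages. Of 6 measured epithelial markers 3 rose (OCLN, TJP1 and RHPN2), against 13.3% of all genes, with a median of 1.88, while MUC1 stood at -1.09. The median of the same list was higher in P114, at 3.05. It was 1.49 in CMT-U309, 0.37 in CMT-W1 and -0.36 in CMT-W2. Of the 3 that rose in CMT-U27, 2 stayed past 3-fold with loess and 1 with centring. Of 9 mesenchymal and matrix genes 4 rose (BGN, SERPINH1, CAV1 and CAV2) and 5 stood above 0, with a list median of 0.02 that was below the 0.20 to 2.95 of the other co-cultures. The 3 probes of SERPINH1 disagreed and ran from -0.81 to 6.47.

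**Figure D3:**
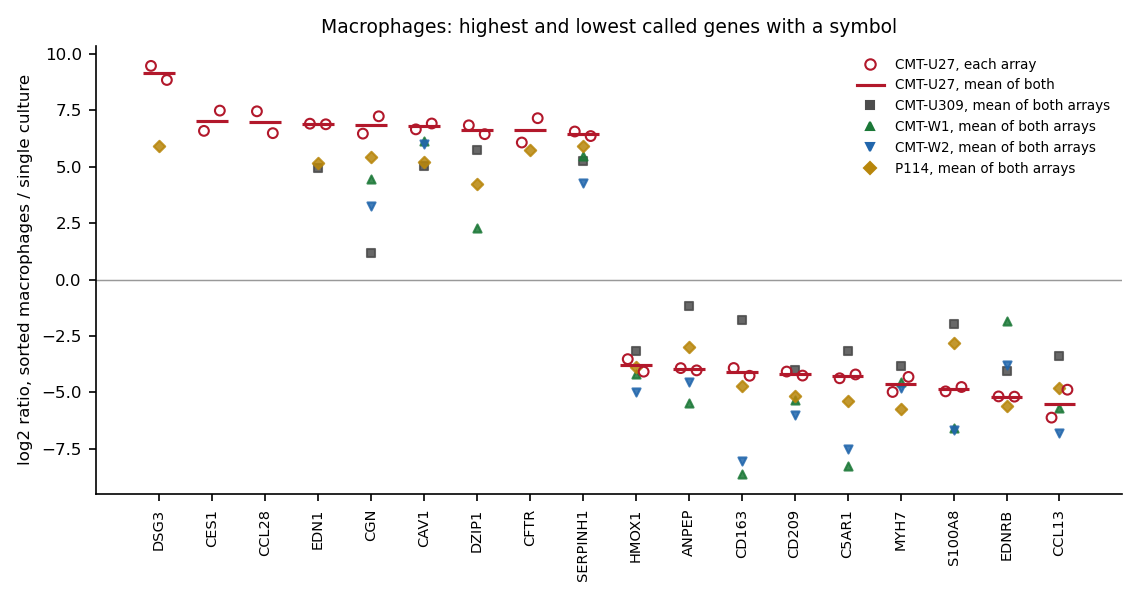
Log2 ratio of sorted over single-culture macrophages for the highest and lowest called genes with a symbol; open circles are the 2 CMT-U27 arrays, the bar is their mean, and filled symbols are the dye-swap means of the other co-cultures that measured the gene. DSG3 at 9.17 leads, with CES1 and CCL28 measured in CMT-U27 alone, and CCL13 at -5.50 is lowest.

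EDN1, the precursor of the vasoconstrictor endothelin-1, rose by 6.91 and 6.89. CCL7 rose by 6.21 and 6.47, above the 2.54 to 4.48 of the other co-cultures, and CXCL10 by 4.78, within their range. SLPI, a secreted protease inhibitor of epithelia, rose by 5.10 and 5.19, against -0.29 to 4.40. Of 10 CC ligands 6 rose (60%, against 13.3% of all genes) and 1, CCL13, fell. IL1B (0.05), IL1A (-0.28), PTGS2 (-0.53) and TNF (0.79, second probe 1.93) were not called. MYC rose by 4.53 and FZD6, a Wnt receptor, by 4.71. They were among 5 of 11 genes of the Wnt, growth factor receptor and oncogene list that rose (45.5%, against 13.3% of all genes), while 1 fell. The list median of 1.71 was the highest of the co-cultures (0.21 to 1.17 elsewhere). Of the 5, 3 stayed past 3-fold with loess and 2 with centring. The growth factors PDGFA and KITLG, the ligand of KIT, were at least 11.1-fold and 5.04-fold higher, and both were not well above background in macrophages grown alone. Lysosome and iron genes had a median of -1.03. CTSC and HMOX1 were the 2 of 12 that fell (16.7%, against 9.34% of all genes), and FTH1 (-1.88) and FTL (-0.90) were not called. All 4 cytosolic ribosomal protein genes rose, against 13.3% of all genes and 15.3% of those with a symbol, led by RPS18 at 3.38. Their list median was 2.19, against 2.53 to 4.01 in the other co-cultures. With normexp and median centring 1 of the 4 stayed past 3-fold, and the median of the 4 was 0.96.

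**Figure D4:**
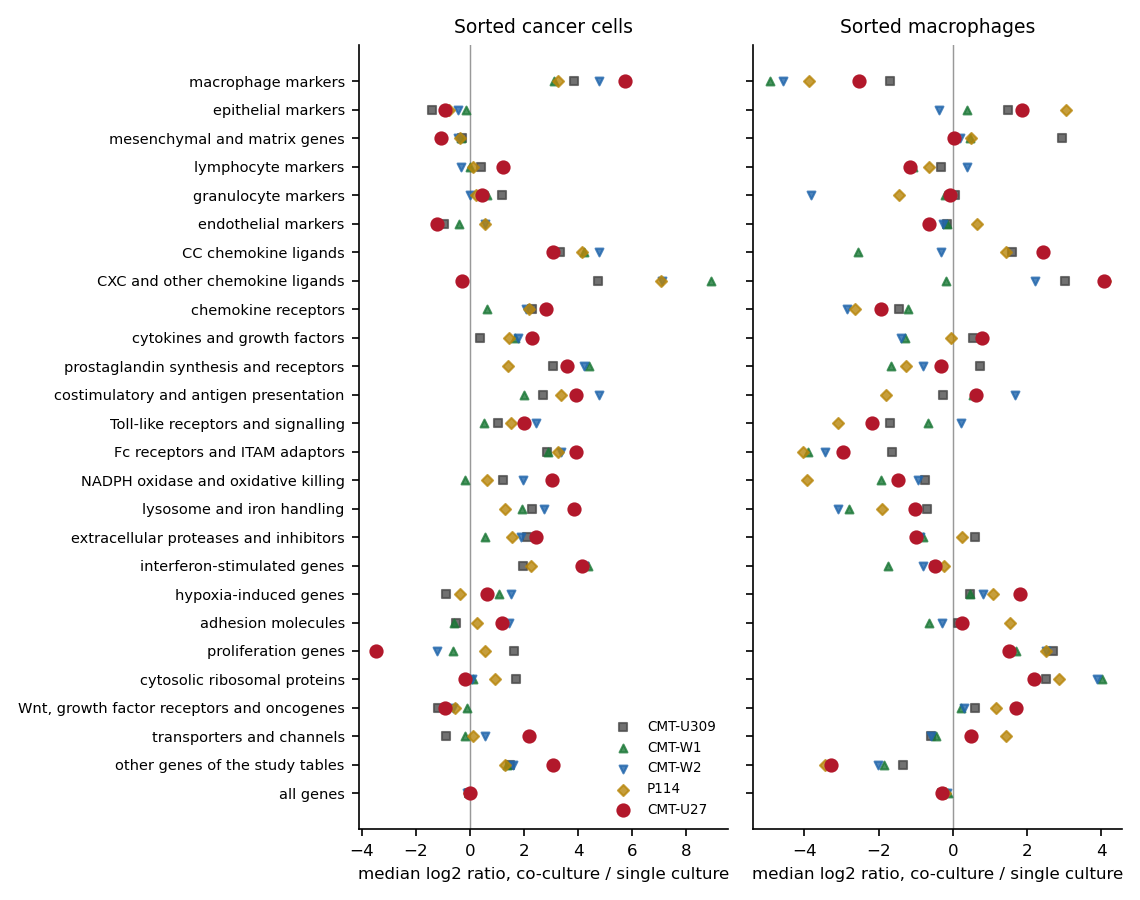
Median log2 ratio of co-culture over single culture for each gene list, with the sorted cancer cells on the left and the sorted macrophages on the right; large red circles are CMT-U27 and smaller symbols the other co-cultures. In the cancer cells CMT-U27 has the lowest proliferation median at -3.46 and the highest macrophage marker median at 5.75. Its chemokine list of CXCL8, CXCL10 and CXCL12 stands at -0.30, while the CMT-W1 median of 8.93 is the value of CXCL8. The median of another co-culture covers only the list genes measured there too, so the gene sets can differ.

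Both populations of the co-culture were then set side by side. Of 22689 genes measured in both, 688 rose in the RNA labelled cancer cells and fell in the RNA labelled macrophages, which was 24.7% of the former's up-regulated and 35.5% of the latter's down-regulated genes. Another 530 fell in the cancer cells and rose in the macrophages. These were 25.0% of the genes down-regulated in the cancer cells and 17.6% of those up-regulated in the macrophages. In the other co-cultures 126 to 403 genes moved the first way and 90 to 140 the second, out of fewer genes called in the cancer cells. The first were 6.58% to 36.0% of the genes up-regulated in those cancer cells, above the CMT-U27 share in CMT-W1, CMT-W2 and P114, and 7.66% to 27.5% of those down-regulated in the macrophages. The second were 9.11% to 41.1% of the genes down-regulated in those cancer cells, highest in CMT-W2, and 2.75% to 4.59% of those up-regulated in the macrophages. Genes that rose in both numbered 180, against 205 to 740 elsewhere, and 172 fell in both, against 26 to 424.

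Among genes with a symbol 48 moved up in the cancer cells and down in the macrophages, and the macrophage markers CD163, C5AR1, CD209 and FCGR1A, the receptors TLR1, TLR2 and TLR4, the scavenger receptor CD36 and HMOX1 were among them. The opposite 19 included CES1, CCL28, CAV1, CGN (a second probe stood at -0.91 in the cancer cells), MET, MYC and SLPI. CCL3, CCL4, CCL5, CSF2, CFTR, PLAU and IL33 were among the 18 that rose in both. BIRC5, the apoptosis inhibitor survivin, and TIMP1 were among the 10 that fell in both, though in the cancer cells the 2 probes of TIMP1 gave -2.36 and 0.00. Whether a gene's opposite directions differ from what carried-over RNA of the other cell type gives was not tested.

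**Figure D5:**
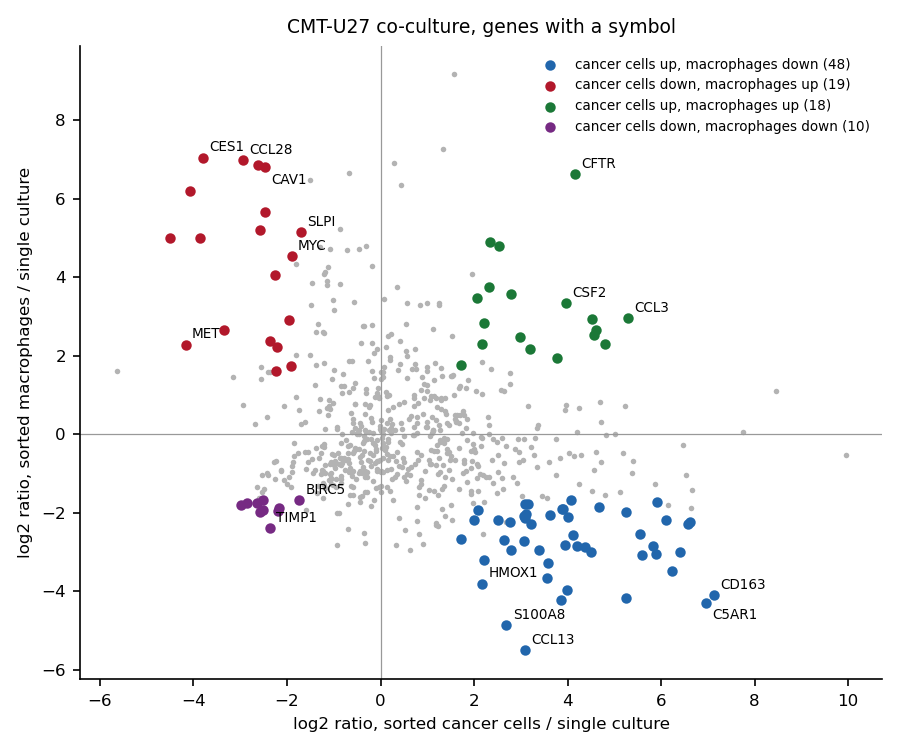
Each point is 1 of 686 genes with a symbol measured in both sorted populations of the CMT-U27 co-culture, plotted by its mean log2 ratio in cancer cells (horizontal) and macrophages (vertical); colours mark genes called in both. The 48 genes that rose in cancer cells but fell in macrophages lie at the lower right, with CD163 and C5AR1, and the 19 opposite genes, with CES1 and CCL28, at the upper left.

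The change in CMT-U27 was tested against the other 4 co-cultures with limma, the single CMT-U27 value being assumed to vary like the others. After Benjamini-Hochberg adjustment 0 of 19844 genes differed in the cancer cells, 0 of 22612 in the macrophages and 0 of 19169 in the difference between both populations, 0% of each, while 2125, 721 and 2418 had an unadjusted p under 0.05. For one value against 4, an exact permutation test cannot go below p = 0.2. With the arrays entered singly and the pair as a random replicate block, the limma test called 7 genes in the cancer cells and 0 in the macrophages.

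SLC12A4, a potassium-chloride cotransporter, had the smallest p-value among named genes in the cancer cells. It differed by 3.67 ± 0.47 (SE, 1 line against 4, limma adjusted p = 0.210), but a second SLC12A4 probe stood at -1.68. Over the alternatives run the SLC12A4 difference ranged from 2.00 to 3.92. SLC46A2 differed by 4.61 ± 0.58 (SE, 1 line against 3, limma adjusted p = 0.244, difference 1.29 to 5.53 over the alternatives). PRNP, the prion protein gene, differed by 4.75 ± 0.67 (limma adjusted p = 0.244, difference 1.53 to 5.26 over the alternatives). In the difference of macrophages minus cancer cells SLPI stood at 6.84 in CMT-U27 and at -0.25 to 0.80 in the others (limma adjusted p = 0.107). Its distance from the others ran from 5.03 to 6.66 over the alternatives. In the macrophages the smallest p among named genes belonged to SLC6A12, a betaine and GABA transporter, at 3.80 against -1.49 to 0.89 (limma adjusted p = 1.00). Its difference ran from 2.82 to 4.76 over the alternatives.

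The slides and scan days could be set beside the lines in part only. The CMT-U27 cancer cells shared slide 1 with the P114 cancer cells, and the cancer cells of all lines were scanned on the same day. With slide as a fixed block, the cancer cells of CMT-U27 were in effect compared with those of P114 alone. The spread then came only from CMT-U309 and CMT-W2, which shared a slide, as CMT-W1 was the only cancer line on its slide. That fit therefore cannot tell whether CMT-U27 differed from the other lines once slide was allowed for. Its count is listed at the end with the other alternatives, and no conclusion is drawn from it. The CMT-U27 macrophages were the only macrophages on slide 3 and the only ones scanned on the second scan day, so for them slide, scan day and co-culture cannot be told apart.

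The calls of the cancer cells were compared over the 14476 genes measured in all 5 lines. Of 1586 genes up-regulated in CMT-U27, 739 (46.6%) were up-regulated in none of the others, 162 (10.2%) in all of them, and 53 were down-regulated in at least 1. Of 1439 down-regulated genes, 635 (44.1%) were down-regulated in no other line, 6 in every line, and 109 were up-regulated in at least 1. The genes up-regulated in both CMT-U27 and CMT-W2 made up 35.4% of the CMT-U27 set and 73.4% of the CMT-W2 set, and those shared with CMT-U309 28.8% and 43.0%.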

How the data were processed

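RNA of each sorted population and of its mono-culture was amplified with the Quick Amp kit and hybridised to canine 4x44K arrays. The authors scanned and extracted the arrays with Agilent Feature Extraction 10.7.3.1 (submitters' processing notes). The deposited files give processed intensity per channel, background-subtracted and dye-normalized, and a log10 ratio of Cy5 over Cy3, which was oriented by the labels' dyes as co-culture relative to mono-culture and written as log2. The deposited series table held the same log10 ratios in that direction. No read-like depth exists, and the 2 arrays per population limit the precision.

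Control and outlier-marked spots were left out. Of 43603 probes 1648 had a symbol, by matching RefSeq accessions to a table of assembly UU_Cfam_GSD_1.0, giving 1045 symbols among 38230 genes or targets, each represented by its brightest probe. Of 537 genes written in lists 201 were on the array by name. Levels were processed intensity after Aquantile normalization. Tests used limma 3.58.1 in R 4.3.3 on dye-swap means, 1 co-culture against 4, two-sided, for genes measured in CMT-U27 and at least 3 others, with Benjamini-Hochberg at 0.05, and were tested on simulated data. The normexp alternatives (offset 50) used median signals, the files holding no mean signal. Alternatives, given at the end, covered scaling, background filter, probe choice, blocks and left-out arrays or co-cultures. Named genes were list members, the 10 highest and 10 lowest called genes per population, the 5 of smallest p per test and genes of the study's tables.

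Members and lists were chosen with earlier results of these data known. The replicate number followed the dye orientation in the cancer cells, and differences between the 2 arrays of a pair correlated between lines at r = 0.18 to 0.38 (-0.35 to 0.62 in the macrophages, where CMT-U27 had the opposite dyes). Whether the macrophages grown alone were 1 culture is not given in the sources used here. Their levels correlated at 0.980 to 0.991 between pairs, so no overlap between macrophage comparisons is given. Sequences and coordinates were not used here, and some genes are not reported here.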

Additional observations from a re-analysis of the deposited data

Results flagged for a closer look

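Of 94 sets of values, 1 value per co-culture, 7 held a value far from the others. SLC46A2, SLC12A4 and EDN2 had been named for their small p-value against the other lines, so their distance here was set by that choice. Chance gives about 1 in 20 of sets not chosen by their values, and as these sets also share genes the rate does not apply to their count. In the cancer cells SLC46A2, a transporter (log2 ratio 6.41, nearest other line 2.24), and SLC12A4 (3.36, nearest -0.14) stood apart. So did the medians of the mesenchymal and matrix list (-1.05, nearest -0.45) and of the remaining genes of the study's tables (3.09, nearest 1.60). The macrophage-rich level of 71.4% in the RNA labelled sorted cancer cells stood apart from 17.1% in the next line. In the macrophages EDN2, an endothelin, stood apart at 3.76 (nearest 1.71), and the mesenchymal and matrix median stood apart in CMT-U309 at 2.95, where CMT-U27 was at 0.02.

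The sorted populations of CMT-U27 moved in opposite directions on all 4 arrays for 688 genes (up in cancer cells, down in macrophages) and for 530 genes (the reverse). The difference between the populations was not tested gene by gene within this co-culture.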

How the results depend on the processing

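The named genes called in CMT-U27 were 86 up and 25 down in the cancer cells, and 54 up and 39 down in the macrophages. All kept their direction with normexp and loess, with normexp and median centring and with outlier-marked spots kept. On each array alone the same direction was already required by the call. With loess 64, 12, 38 and 24 of them stayed past 3-fold, and with centring 69, 6, 31 and 30.

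The number of genes called in CMT-U27 was 1863 (cancer cells) and 2151 (macrophages) with loess, 1790 and 1144 with centring, and 3461 and 3402 where both cultures had to be above background, against 5277 and 5458. Centring moved the share of calls that were up from 54.5% to 94.0% in the cancer cells, loess moved it from 58.8% to 78.8% in the macrophages, and the cause was not tested. The median ratio of all genes was 0.19 with centring in the cancer cells and -0.04 with loess in the macrophages. On single arrays 6963 to 7137 and 7202 to 8060 genes passed.

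In the limma tests of CMT-U27 against the others, the macrophage test called 15 genes with no filter on dim probes. On leaving out 1 array or 1 co-culture the counts ran from 0 to 0 in the cancer cells, 0 to 1 in the macrophages (1 without P114) and 0 to 6 in the difference (6 without CMT-U27 replicate 1). With the pair as a random replicate block the cancer cells gave 7 genes and the macrophages 0, and without the pairing of both populations (10 dye-swap means) the difference gave 3. Taking the 10 arrays as separate replicates gave 2127 and 94, and slide as a fixed block gave 95 in the cancer cells. The fit with slide in effect compared CMT-U27 with P114 alone, so its 95 genes cannot be read as differences from the other lines.

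Without normalization between arrays and with quantile normalization, the macrophage-rich level was 85.0% and 66.8% in the RNA labelled cancer cells and 21.4% and 21.8% in the RNA labelled macrophages, and the cancer-rich level 33.4% and 30.5%, and 96.6% and 95.3%. Without it the macrophage markers were 2.31 higher (log2) in the RNA labelled cancer cells than in the RNA labelled macrophages, against 2.04, and the epithelial markers stood at -0.41 against -0.71.

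Each CMT-U27 population is 1 sample, the macrophages' slide and scan day cannot be told apart from the co-culture, and signals near background give bounds only.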
